A study of Rattus norvegicus with 9 samples.

Results

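The cold shock and cold-inducible RNA-binding proteins were followed through 5 genes, of 26115 gene names on the arrays: the cold-inducible RNA-binding proteins Cirbp and Rbm3, and the cold shock domain proteins Ybx1, Ybx3 and Carhsp1. All gene probes that carry these names in the array files were taken, 7 of 30367 gene probes, with a pair of probes each for Ybx1 and Ybx3. The genes were picked because the perfused kidneys had been kept cold and because Ybx3 was already known to be lower in them. The Ybx3 difference is therefore given as a description with no test.

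The arrays measured kidneys of Fisher F344 rats after 20 min. of warm ischaemia, in a rat model of kidney donation after circulatory death. The 5 NP kidneys are the non-perfused ones of the study. The 4 MSC kidneys had the same ischaemia and were then perfused for 4 hrs at 4°C with Belzer solution (BS) with 3000000 mesenchymal stromal cells (MSC), which had been expanded from the bone marrow of Sprague Dawley rats transgenic for EGFP. Each array holds the RNA of 1 kidney, and the age of the rats is not given in the sources used here. The treatment field of the labels and the methods call the NP kidneys not perfused, and they are taken so here. On that reading the groups differ together in perfusion, in cold, in the added cells and in the 4 hrs that passed before the tissue was stored. No array of kidneys perfused with BS alone was analysed here, so these cannot be told apart. The titles and descriptions of the NP samples instead name BS perfusion, also of 4 hrs and at 4°C, and on that reading both groups were cold and the added cells alone would set them apart. Every difference below is open to either reading. A further MSC array that the authors discarded was not analysed here.

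In many mammalian cells, mild cooling raises the mRNA of Cirbp and Rbm3, small glycine-rich proteins with an RNA recognition motif that bind other mRNAs and act on their stability, splicing and translation. The Y-box proteins Ybx1 and Ybx3 and the smaller Carhsp1 share a cold shock domain with the cold shock proteins of bacteria, but they owe their name to that fold and not to a general induction by cold. Ybx1 (YB-1) packages mRNA and acts on its translation. Ybx3, also called ZONAB or DbpA, binds the tight junction protein ZO-1 and acts in tubule cells on genes of proliferation. Carhsp1 is a phosphoprotein that binds Tnf mRNA and is a substrate of calcineurin.

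The probes are shown because several results below differ between probes of 1 gene. Each sequence is as the array files give it, with the position on rat build rn4 that the files list. The Rbm3 and the second Ybx1 and Ybx3 probes are given whole. For the Cirbp and the first Ybx1 and Ybx3 probes the first 30 of 60 bases are given, and for Carhsp1 the position alone.
Cirbp probe A_44_P138790, chr7:11047616-11047675, minus strand: ttcgctgaacgttgtgtagtgagcaccttg
Rbm3 probe A_44_P548203, chrX:26380381-26380440, plus strand: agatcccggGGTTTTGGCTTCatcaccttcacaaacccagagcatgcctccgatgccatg
Ybx1 probe A_64_P009809, chr5:139859412-139859471, minus strand: gaatatgaaattccagcaataagaaatgaa
Ybx1 probe A_64_P009810, chr5:139859984-139860043, minus strand: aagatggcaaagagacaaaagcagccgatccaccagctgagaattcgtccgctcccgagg
Ybx3 probe A_42_P631493, chr4:169076651-169076710, minus strand: tatagtaaatgctctttttcctttgttgtt
Ybx3 probe A_64_P135387, chr4:169080170-169080229, minus strand: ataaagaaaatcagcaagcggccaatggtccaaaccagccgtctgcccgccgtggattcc
The capitals in the Rbm3 probe mark bases 10 to 21, GGTTTTGGCTTC, which encode the core of a conserved RNA-binding motif of its RNA recognition motif. The Carhsp1 probe A_44_P210178 lies at chr10:7000095-7000154 on the plus strand. The Ybx1 probes start at bases 1147 (A_64_P009809) and 1009 (A_64_P009810) of the transcript and hold 35% and 55% G or C, and the Ybx3 probes start at bases 1648 (A_42_P631493) and 1078 (A_64_P135387) with the same 35% and 55%. No other gene probe on the array shares a run of 20 bases with any of the 7 probes. The current rat gene table names 21 pseudogenes of Ybx1 and 1 of Carhsp1, and whether these probes also detect their RNA was not tested. An annotation of build rn4 was not used here, so the exon or untranslated region that each probe lies in is not given.

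All values below are log2 intensities after normalization between arrays, and a difference is the mean of the MSC kidneys minus that of the NP kidneys. Intensities of different probes are not on 1 scale and were not compared with each other. All 7 probes passed the filter on dim probes and were well above background on 9 of 9 arrays, and no spot was saturated. The arrays lay on 2 slides that each held both groups: slide 1 held NP kidneys 1, 2 and 3 with MSC kidneys 1 and 2, and slide 2 held NP kidneys 4 and 5 with MSC kidneys 3 and 4. Between 65.6% and 74.3% of gene spots were well above background per array. Kidney markers were present, with 6 of 6 proximal tubule, 4 of 4 thick ascending limb and 7 of 7 collecting duct genes past the filter. A gene was called when its FDR in limma was under 0.05 and its fold change above 1.5, and 0 of the 13837 genes tested met it (0%), and so none of Cirbp, Rbm3, Ybx1 and Carhsp1. The paper, by contrast, reports Tmem52b and Calb1 as higher in MSC kidneys at these limits on the same arrays. At an unadjusted p under 0.05 limma gave 6.57% of genes higher and 5.1% lower in MSC kidneys.

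Cirbp was on average higher in MSC kidneys, but the groups overlapped. Its log2 intensity was 11.17, 11.18, 11.34, 10.81 and 10.83 in NP kidneys 1 to 5, and 11.68, 11.49, 11.07 and 11.10 in MSC kidneys 1 to 4. MSC kidneys 1 and 2 stood above all NP kidneys, and MSC kidneys 3 and 4 lay among them. The means were 11.06 ± 0.23 (SD, n = 5) and 11.33 ± 0.30 (SD, n = 4), a difference of 0.27 (SE 0.16, 95% interval -0.09 to 0.63), or 1.21-fold with an interval of 0.94-fold to 1.55-fold. It did not pass the test (limma, FDR 0.532 over all genes; exact two-sided permutation p = 0.167, the smallest possible being 0.00794).

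The split among the Cirbp values followed the slide as well as the group. Cirbp averaged 11.37 on slide 1 and 10.95 on slide 2, a difference of -0.45 (SE 0.07) in a limma fit that holds the group constant (FDR 0.0586 over 15723 probes, of which 0.0954% passed an FDR under 0.05 for slide). Within slides the mean of the MSC kidneys was above that of the NP kidneys, by 0.36 on slide 1 and by 0.26 on slide 2. With slide as a block the difference was 0.31 (SE 0.07). Its unadjusted p in limma was then 0.00243, but its FDR was 0.288 and it was not called (0% of genes were). Of all 13837 genes in that fit, 6.98% were higher in MSC kidneys at an unadjusted p under 0.05.

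A further probe reads the Cirbp locus without carrying its name. The array files label it TC606255, a transcript cluster that they also list among the accessions of the Cirbp probe, and place it at chr7:11047937-11047996 on the minus strand. It was examined after the Cirbp values had been seen. Its log2 intensity was 10.16, 10.35, 10.56, 10.33 and 10.23 in the NP kidneys and 10.78, 10.57, 10.34 and 10.44 in the MSC kidneys, with overlap between the groups. The difference was 0.21 (SE 0.11; limma, FDR 0.499; exact permutation p = 0.111). Both probes thus put MSC kidneys 1 and 2 highest. With TC606255 too the MSC mean was above the NP mean on each slide, by 0.32 and 0.11. The log2 ratio of the probes on the same array differed by 0.06 between groups (exact permutation p = 0.619).

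Rbm3 showed the pattern of Cirbp. Its log2 intensity was 11.88, 12.13, 12.17, 11.75 and 11.92 in NP kidneys 1 to 5 and 12.56, 12.43, 11.995 and 11.86 in MSC kidneys 1 to 4. Again MSC kidneys 1 and 2 were above every NP kidney and the others were not. The means were 11.97 ± 0.18 (SD, n = 5) and 12.21 ± 0.34 (SD, n = 4), a difference of 0.24 (SE 0.16, 95% interval -0.11 to 0.59), or 1.18-fold, which did not pass the test (limma, FDR 0.564; exact permutation p = 0.230). Slide 2 was lower than slide 1 by -0.38 (SE 0.10; limma, FDR 0.167), with an unadjusted p under 0.05 as for Cirbp. Of all probes, 6.63% were lower on slide 2 at an unadjusted p under 0.05. The mean of the MSC kidneys was higher by 0.44 on slide 1 and by 0.09 on slide 2. With slide as a block the difference was 0.28 (SE 0.10; limma, FDR 0.345).

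**Figure D1:**
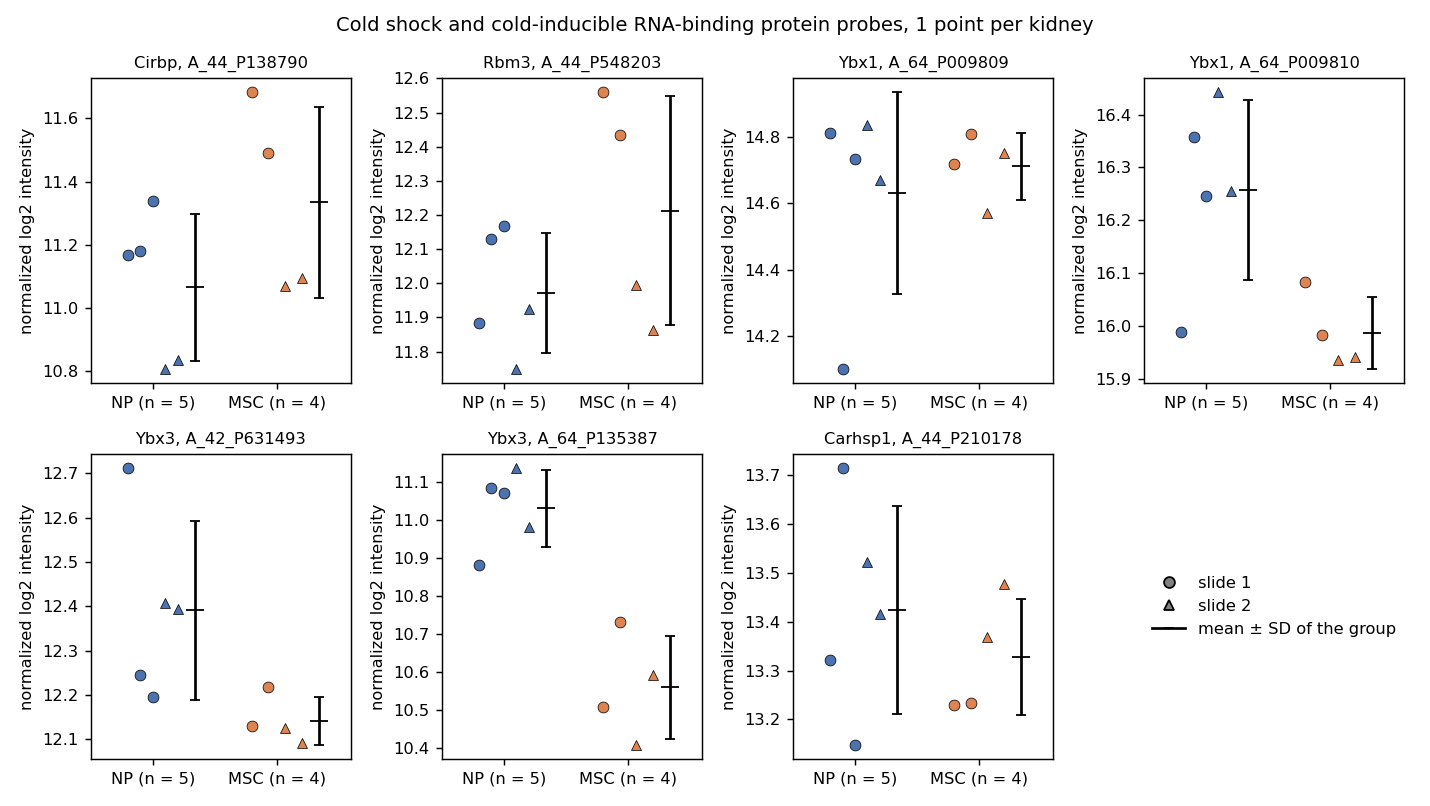
Normalized log2 intensity of each of the 7 probes (a panel each, with its own scale that does not start at 0) in 5 NP and 4 MSC kidneys, 1 point per kidney, circles for slide 1 and triangles for slide 2, with mean ± SD of the group beside the points. Only for Ybx3 probe A_64_P135387 do the groups not overlap, and for Cirbp and Rbm3 the circles of MSC kidneys lie above all other points.

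Ybx1 gave different values by probe. With probe A_64_P009810 its log2 intensity was 15.99, 16.36, 16.25, 16.44 and 16.25 in NP kidneys and 16.08, 15.98, 15.94 and 15.94 in MSC kidneys. Apart from MSC kidney 1, the MSC kidneys were below every NP kidney, although NP kidney 1 was close to them. The difference was -0.27 (SE 0.10, 95% interval -0.49 to -0.05), or 0.828-fold. The unadjusted p was 0.0193 in limma and 0.0238 in the exact permutation test, but the FDR was 0.360 over all probes, of which 5.18% were lower at an unadjusted p under 0.05. The difference was -0.16 within slide 1 and -0.41 within slide 2.

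Probe A_64_P009809, which varied most between arrays and so stands for Ybx1 in the test of 1 probe per gene, did not show this. It gave 14.81, 14.10, 14.73, 14.84 and 14.67 in NP kidneys and 14.72, 14.81, 14.57 and 14.75 in MSC kidneys. All MSC kidneys lay within the range of the NP kidneys, and NP kidney 2 lay well below the rest. The difference was 0.08 (SE 0.15, 95% interval -0.25 to 0.41; limma, FDR 0.860; exact permutation p = 0.857), and without NP kidney 2 it was -0.05. The log2 ratio of probe A_64_P009809 to A_64_P009810 was higher by 0.35 in MSC kidneys, which did not pass the exact permutation test (p = 0.0952, 0.190 after adjustment over 2 such ratios), and by 0.20 without NP kidney 2. Within groups, the Ybx1 probes did not follow each other over the 9 arrays (r = -0.26, as a description).

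Ybx3 was lower in MSC kidneys with both of its probes, and this is the difference for which the genes were chosen. Probe A_64_P135387 gave 10.88, 11.08, 11.07, 11.14 and 10.98 in NP kidneys and 10.51, 10.73, 10.41 and 10.59 in MSC kidneys. The groups did not overlap. The means were 11.03 ± 0.10 (SD, n = 5) and 10.56 ± 0.14 (SD, n = 4), a difference of -0.47 (SE 0.09), or 0.721-fold, with -0.39 on slide 1 and -0.56 on slide 2. Among all probes, every MSC array was below every NP array for 2.12%, from which nothing is read for a gene chosen on this difference. The change was smaller than the fold of 1.5 used for a call.

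Probe A_42_P631493, which lies further towards the end of the Ybx3 transcript, gave a smaller difference. It was 12.71, 12.24, 12.20, 12.41 and 12.39 in NP kidneys and 12.13, 12.22, 12.12 and 12.09 in MSC kidneys. MSC kidneys 1, 3 and 4 were below all NP kidneys, and MSC kidney 2 was just above NP kidney 3. The difference was -0.25 (SE 0.11), or 0.841-fold, and was -0.21 within slide 1 and -0.29 within slide 2. Without NP kidney 1, the highest, it was -0.17. The log2 ratio of probe A_42_P631493 to A_64_P135387 was 0.22 higher in MSC kidneys and 0.34 higher without NP kidney 1, and the probes did not follow each other within groups (r = -0.37 over 9 arrays, as a description).

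Probe A_42_P631493 is spotted 10 times on each array. All 10 spots had a lower mean in MSC kidneys, by -0.33 to -0.21. The spots share the RNA of the same kidneys and are not replicates of the groups. They also differed by place, since the same 2 spots were the highest on 8 of 9 arrays, by 0.22 and 0.21 on average over the mean of the array. Those 2 spots carried outlier flags on NP kidneys 4 and 5 alone and were left out there. With them kept the Ybx3 difference of this probe was -0.27, and with both left out on every array -0.26, both examined after the data had been seen.

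**Figure D2:**
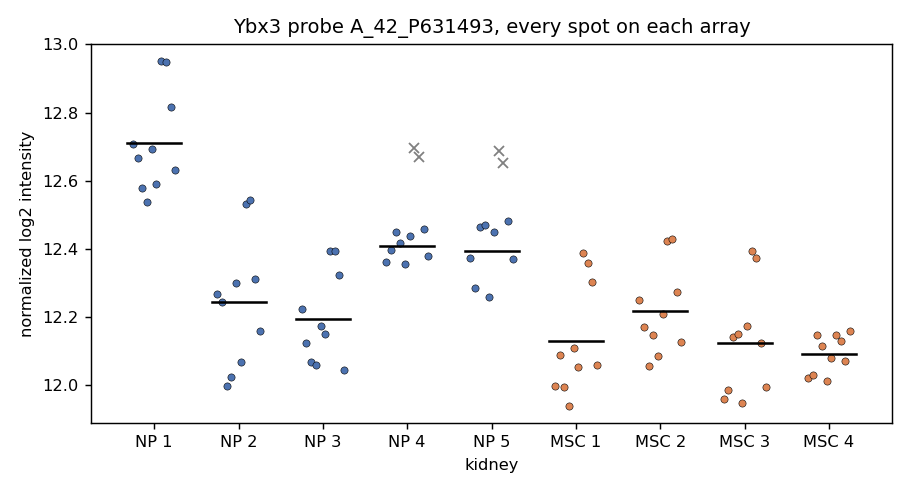
Normalized log2 intensity (axis not starting at 0) of every spot of Ybx3 probe A_42_P631493 in each of the 9 kidneys, blue for NP and orange for MSC, with a bar at the mean of the spots used and grey crosses for the 4 outlier spots left out. NP kidney 1 is highest with a mean of 12.71, and the MSC kidneys have means of 12.09 to 12.22.

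Markers of cell types were set beside the Ybx3 values. In bulk tissue, fewer cells of a type and less RNA per cell cannot be told apart. None of the marker genes was called (0), and the levels given here are means of a list's log2 values after each gene was centred over all arrays. Of 4 red cell genes on the array 2 passed the filter, with differences of -1.68 for Hbb (a haemoglobin chain) and -1.74 for Alas2 (the first enzyme of haem synthesis in red cells). Their level was 0.02 to 1.30 in NP kidneys and -3.13 to 0.61 in MSC kidneys, lowest in MSC kidney 1, without which the difference of the levels went from -1.71 to -0.99. The podocyte level (4 of 5 genes past the filter) was -0.34 to 0.39 in NP and -0.87 to 0.22 in MSC kidneys, a difference of -0.29 that was -0.06 without MSC kidney 4.

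The collecting duct level (7 of 7 genes, all with a positive difference) was -0.68 to 0.18 in NP and 0.11 to 0.43 in MSC kidneys. That of the distal convoluted and connecting tubule (4 of 5 genes past the filter, all positive) was -0.59 to 0.29 in NP and 0.18 to 0.30 in MSC kidneys. In both, NP kidney 1 reached the range of the MSC kidneys. For the proximal tubule (6 of 6 genes) the level was -0.24 to 0.07 and 0.02 to 0.15, for the thick ascending limb (4 of 4) -0.41 to 0.18 and -0.17 to 0.38, and for leukocytes (5 of 7) -0.41 to 0.12 and -0.13 to 0.36 in NP and MSC kidneys. These 5 levels overlapped between the groups. So did those of endothelium (5 of 6 genes), -0.41 to 0.17 and -0.21 to 0.27, and of smooth muscle (4 of 5), -0.40 to 0.84 and -0.25 to 0.36.

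The level of fat around the kidney (4 of 7 genes past the filter) was -1.01 to 0.12 in NP kidneys and -0.94 to 2.37 in MSC kidneys. MSC kidneys 3 and 4 were above all NP kidneys and MSC kidneys 1 and 2 were not, and the difference of 1.18 was 0.60 without MSC kidney 3. The level of mesenchymal stromal cells (4 of 8 genes past the filter) was -0.87 to 0.72 in NP and -0.39 to 0.49 in MSC kidneys. The difference of 0.42 was 0.24 without NP kidney 1 and 0.64 without NP kidney 2. Col1a1, Col1a2 and Col3a1 were on average higher in MSC kidneys and Pdgfrb was lower, by -0.21, while Thy1 and Itga5 did not pass the filter. The highest level was in NP kidney 2, which had no added cells, so this level is not a measure of the added MSC. The part of these lists in the differences of Ybx3 or the other genes was not tested.

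Carhsp1 did not differ beyond the spread between kidneys. It was 13.32, 13.71, 13.15, 13.52 and 13.42 in NP kidneys and 13.23, 13.23, 13.37 and 13.48 in MSC kidneys. All MSC kidneys fell inside the NP range. The difference was -0.10 (SE 0.12, 95% interval -0.36 to 0.16; limma, FDR 0.772; exact permutation p = 0.452), and it was -0.16 and -0.05 within the slides. The interval leaves room for a fall to 0.780-fold or a rise to 1.12-fold.

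**Figure D3:**
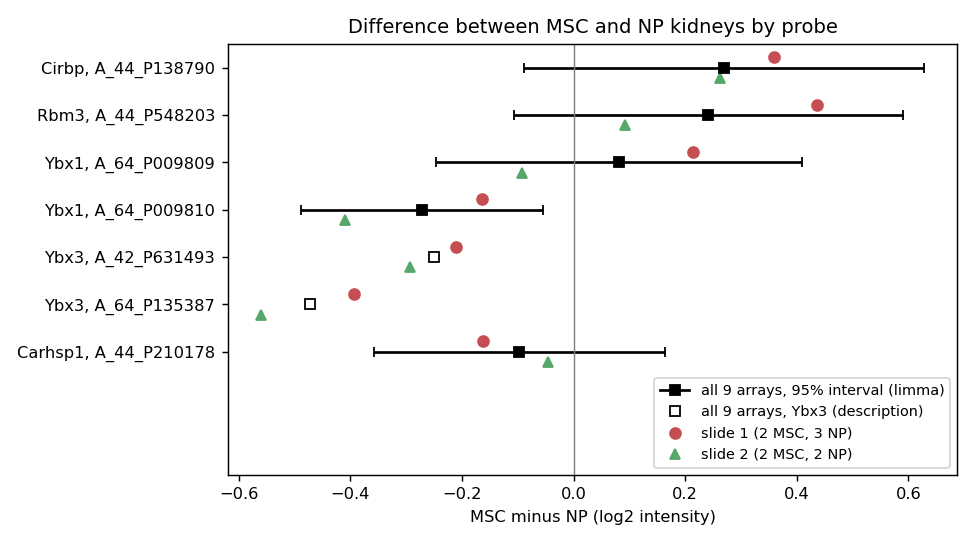
Difference between MSC and NP kidneys (log2 intensity, horizontal axis) for each probe. Filled squares with bars are the limma estimate over 9 arrays with its 95% interval, open squares are Ybx3, which has no test, and circles and triangles are the differences within slides 1 and 2. The Cirbp and Rbm3 values are positive on both slides, the values of Ybx1 probe A_64_P009810, Ybx3 and Carhsp1 are negative on both, and Ybx1 probe A_64_P009809 goes from 0.21 on slide 1 to -0.09 on slide 2.

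Cirbp and Rbm3 varied together among kidneys of the same group, which does not use the difference between groups. After each value was centred on its group mean, they had a Pearson's r of 0.898 over 9 kidneys (exact permutation within groups, p = 0.0177) and a Spearman's rho of 0.9 (p = 0.0153 by the exact permutation). The p did not hold after adjustment over the 10 pairs of the 5 genes (0.177 for r and 0.153 for rho). Without NP kidney 4 and MSC kidney 3, the kidneys farthest from the median of Cirbp, r was 0.857. Within the groups r was 0.800 over 5 NP kidneys and 0.975 over 4 MSC kidneys, given as a description. Once the values were centred by slide as well, r was 0.582 and rho 0.583 (exact permutation p = 0.229 for r). The relation did not pass this test within slides, in which the 48 permutations allow no p below 0.0208, or below 0.208 once adjusted over the pairs if 1 pair reaches it. None of the other 9 pairs passed, with adjusted p of at least 0.389 in the exact permutation test.

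**Figure D4:**
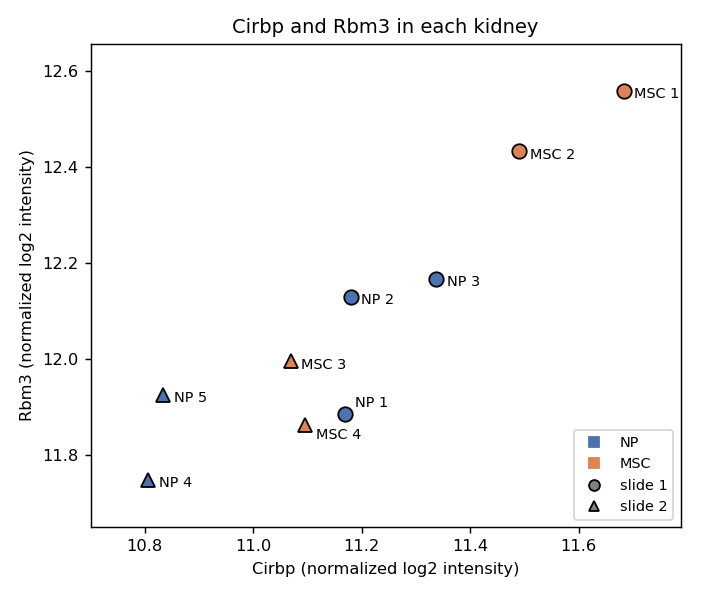
Rbm3 against Cirbp (normalized log2 intensity on both axes, not starting at 0), 1 point per kidney, blue for NP and orange for MSC, circles for slide 1 and triangles for slide 2. MSC kidneys 1 and 2 are at the top right and NP kidney 4 at the bottom left, and 4 of 5 circles lie above all triangles in Rbm3.

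The genes most like each member by the same within-group r over 9 arrays were Sema4b, Abracl and Lrrc48 for Cirbp (r = 0.973, 0.973 and 0.971). For Rbm3 they were Utp15, Fbxo34 and Uxs1 (r = 0.988, 0.983 and 0.972). For Ybx1, by probe A_64_P009809, they were Mov10, RGD1560076 and Glrx3 (r = 0.969, 0.955 and 0.954), and for Ybx3, by probe A_64_P135387, Il2rg, March9 and LOC100909471 (r = 0.973, 0.958 and 0.930). For Carhsp1 they were Ep400, the unnamed probe A_64_P069442 and Tmem63b (r = 0.977, 0.965 and 0.952). With 13835 genes to choose from and 9 arrays such values are a description, and 89 genes had an r over 0.9 with Cirbp, 47 with Rbm3, 86 with Ybx1, 17 with Ybx3 and 15 with Carhsp1.

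The relatives and partners of these genes gave no call either, and the values named here were on average higher or lower without passing the test. Of 35 further genes of the RBM family of RNA-binding proteins on the array 27 passed the filter, 16 higher and 11 lower with a median of 0.03. The median over all genes was -0.01. Rbm14, a coactivator, was higher by 0.26 (limma, FDR 0.395) and Rbm47, a cofactor of RNA editing, by 0.45 (FDR 0.439). The spliceosome component Rbm22 was lower by -0.64 (limma, FDR 0.420) and Rbm42 by -0.16 (FDR 0.446).

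Among 10 regulators, targets and receptors of Cirbp and Rbm3, 7 passed the filter, 4 higher and 3 lower with a median of 0.12. Rtn3, whose translation Rbm3 raises in cooled neurons, was higher by 0.31 (limma, FDR 0.399), and Ly96, the partner of the receptor Tlr4 that extracellular Cirbp binds, by 0.24 (FDR 0.440). Sp1, a transcription factor of the Cirbp promoter, was lower by -0.26 (limma, FDR 0.439), and Hsf1, the heat shock factor, by -0.15 (FDR 0.467). Trpv4, a channel linked to Cirbp induction, differed by 0.12 (limma, FDR 0.757). Ntrk2, Tlr4 and Trem1 did not pass the filter.

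Of 14 mRNA-binding partners of Ybx1 on the array 13 passed the filter, 9 higher and 4 lower with a median of 0.03. The nucleolar proteins Npm1 and Ncl were higher by 0.25 and 0.30 (limma, FDR 0.333 and 0.404). Pabpc1, which binds poly(A) tails, was lower by -0.30 (limma, FDR 0.445), and Hnrnpu by -0.26 (FDR 0.687).

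Of 11 partners and targets of Ybx3 10 passed the filter, 5 higher and 5 lower with a median of 0.01. Slc3a2, the heavy chain of amino acid transporters, whose mRNA Ybx3 binds, was higher by 0.44 (limma, FDR 0.347). Pcna, a replication factor, was higher by 0.14 (limma, FDR 0.558). Arhgef2, an exchange factor that ZONAB binds at tight junctions, was lower by -0.15 (limma, FDR 0.529) and Tjp1, which encodes ZO-1, by -0.13 (FDR 0.671). Slc7a5, the light chain that pairs with Slc3a2, was expressed above the filter on 3 arrays and was not tested. All 6 genes of the Carhsp1 list passed the filter, 1 higher and 5 lower with a median of -0.13. Akt1, a kinase that phosphorylates Carhsp1, was higher by 0.31 (limma, FDR 0.390), whereas Tnf was lower by -0.29 (FDR 0.440) and the calcineurin subunit Ppp3cb by -0.22 (FDR 0.542).

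**Figure D5:**
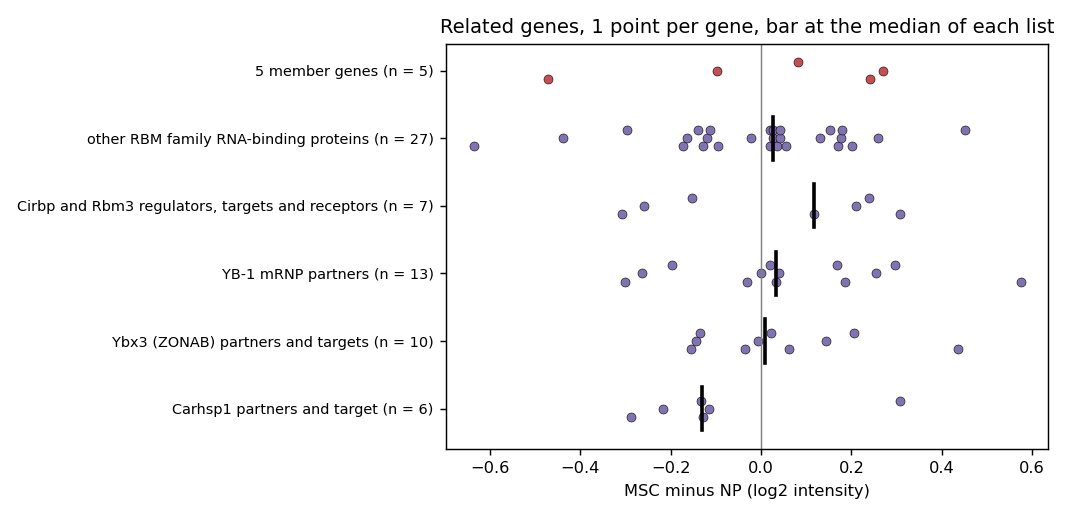
Difference between MSC and NP kidneys (log2 intensity) for the 5 genes described here (red) and for the genes of each related list that passed the filter (purple), 1 point per gene, with a bar at the median of each list. The medians of the lists lie between -0.13 and 0.12, and Ybx3 at -0.47 is the lowest red point.

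The promoters of the 5 genes were found in RefSeq's table for build GRCr8, each with 250 bases before and 50 after the start of the gene. They were searched on both strands for TCCCCGCC, the core of the mild-cold responsive element described for Cirbp. It occurred in the promoter of Cirbp, first base at -235, and of Ybx3, first base at -57, on the strand of the gene. The promoters of Rbm3, Ybx1 and Carhsp1 did not hold it. Of 33469 rat promoters of the same length 4.79% held it. A match of these letters is a description and not a site. Nothing is read from the match in Cirbp, for which the element was described, or from a count that includes it.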

How the data were processed

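The authors scanned 1-colour Agilent rat arrays of Cy3-labelled cRNA, and the intensity values of each spot in the deposited raw files were made with Agilent Feature Extraction, without background subtraction in the column used here. The authors also deposited a table of normalized log2 values, with a Pearson's r of 0.99987 to 0.99997 with those computed here.

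Mean intensities were log2 transformed and normalized by cyclic loess. The limit of expression was the 95th percentile of the log2 negative controls times 1.1, and spots beyond it on at least 4 arrays were kept. Spots with outlier flags were left out and the others of a probe averaged, giving 15723 probes. The probe of largest variance was kept per gene, giving 13837 genes. A linear model with moderated variances (limma) compared the groups, with the Benjamini-Hochberg FDR, in R 4.3.3 with limma 3.58.1 (package data.table, version 1.17.8, read the files). Exact permutation tests ran over all splits of the 9 arrays. Group labels came from the treatment field. A limma p sets a difference against the spread between kidneys, moderated over all genes. A permutation p ranks the observed value among those of rearranged kidneys. The number of arrays limits the precision. The fits were tested on simulated data.

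The genes and lists were chosen with earlier results of these data known. Named are all probes of the 5 genes, from each list the 2 genes of smallest p in each direction and the brightest, and the 3 genes most like each of the 5 in pattern. A list fixed with these is not reported here. TC606255 was added after the data were seen. The 7 probes' accessions carry the same names in the current RefSeq table. Replicate numbers of the labels were not taken as pairs of kidneys in the main fit, since no source used here says whether they are. Other intensity columns, normalizations, background corrections, filters, probe choices, variance models, weights, blocks and omitted arrays were tried. No column of values per sample was left unused (0).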

Additional observations from a re-analysis of the deposited data

Results flagged for a closer look

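Of the 14 groups of values (7 probes in 2 groups), 1 held a kidney far from the others. On Ybx1 probe A_64_P009809, the gap of NP kidney 2 to the next lowest NP kidney was 0.777 of the range of the group, with log2 intensities of 14.10 and 14.67. Chance alone would mark about 1 such group in 20. On Ybx1 probe A_64_P009810 the same kidney, at 16.36, lay within the range of the other NP kidneys. Without it, the Ybx1 difference of probe A_64_P009809 was -0.05 in place of 0.08.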

How the results depend on the processing

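Cirbp and Rbm3 kept a positive difference and Ybx3 and Carhsp1 a negative one under all alternatives run, and none of the 4 genes tested (Cirbp, Rbm3, Ybx1, Carhsp1) passed an FDR under 0.05 in any. Over the alternatives Cirbp ran from 0.15 to 0.44 (limma, FDR 0.202 to 0.939), Rbm3 from 0.13 to 0.37 (FDR 0.261 to 0.955), Ybx1 from -0.39 to 0.13 (FDR 0.366 to 0.998) and Carhsp1 from -0.17 to -0.02 (FDR 0.556 to 0.952). Leaving out 1 kidney gave 0.15 (without MSC kidney 1) to 0.36 for Cirbp, 0.13 (without MSC kidney 1) to 0.36 for Rbm3, -0.25 (without NP kidney 2) to 0.13 for Ybx1, -0.53 to -0.42 for Ybx3 and -0.17 (without NP kidney 3) to -0.02 (without NP kidney 2) for Carhsp1. Ybx1 was -0.39 with Agilent's processed signal scaled to the 75th percentile, which changes background, intensity and scaling together, -0.27 with the brightest probe and -0.25 without NP kidney 2, which all take probe A_64_P009810, -0.10 with the mean of its probes and -0.00233 with array weights, where the cause was not tested. Probe A_64_P009809 itself was -0.0108 with that processed signal, 0.08 with normexp background correction alone and -0.0515 without NP kidney 2. Ybx3 was -0.29 with median scaling and -0.25 with the brightest probe, both of which take probe A_42_P631493.

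Genes called in limma were 0 in each alternative but array weights, with 2 genes higher (Calb1 and Tmem52b, named after their values were seen). The replicate block, for which the same-numbered kidneys had correlations of -0.35 to 0.32 and 2 of 4 went best with their own number, gave 0.21 for Cirbp, 0.23 for Rbm3, 0.09 for Ybx1, -0.48 for Ybx3 and -0.10 for Carhsp1, with 0 genes called. The r of Cirbp and Rbm3 was 0.915 with quantile normalization, with an adjusted p of 0.0347 in the exact permutation test. The cause was not tested. Of the other pairs, r turned sign for Cirbp and Ybx1 (0.16 by slide, 0.0613 with quantile normalization), Cirbp and Ybx3 (-0.19), Rbm3 and Ybx3 (-0.0717) and Ybx1 and Ybx3 (-0.11) by slide, Ybx1 and Carhsp1 without 2 kidneys (0.00457) and Ybx3 and Carhsp1 with quantile normalization (-0.16). No scaling moved the median of all genes by 0.1.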
